A study of Mus musculus and Homo sapiens with 16 samples.

Results

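Unsorted epidermis of the set titled HFD was compared between Klf5+/- mice (heterozygous) and mice labelled Klf5-/- (knockout), by RNA sequencing. The members are 4 RNA libraries, 2 per genotype, chosen by their titles, out of 10 RNA libraries and 16 samples in the whole series. All came from skin epithelium of C57BL/6 mice. The labels do not expand the letters HFD and give no age, stage or sex for these libraries. They also do not name the Cre driver, the deleted part of Klf5 or the number of animals behind a library. By their labels both genotypes carry a deleted Klf5 allele, and none is labelled as having both copies of the gene. Epidermis was peeled after dispase and ground in liquid nitrogen, so every cell type that came off with the sheet is in the RNA. The other RNA libraries, 3 Klf5+/- and 3 labelled Klf5-/-, hold sorted epithelial cells of E17.5 embryos and enter only where the genotype difference of this set is compared with theirs.

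KLF5 is a zinc-finger transcription factor of the Kruppel-like family that binds GC-rich and CACCC-like sequences and is expressed in dividing epithelial cells. In the epidermis, basal keratinocytes divide, move up, switch from the keratins Krt5 and Krt14 to Krt1 and Krt10, and end as flattened cells with a cornified envelope. That envelope is built from loricrin, small proline-rich (Sprr) and late cornified envelope (Lce) proteins and is coated with ceramides, cholesterol and fatty acids. Proteases of the kallikrein family and their inhibitors control the shedding of the outermost cells.

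The 4 libraries held 31819010 to 44336888 counts on genes, so 3 counts, the limit that a count of 0 allows, came to 0.0677 to 0.0943 CPM before scaling. CPM, counts per 1e6 counts, is elsewhere scaled here by TMM, a factor that aligns the bulk of genes between libraries. The tissue label was checked on defining keratins, taken per length as RPKM (reads per kilobase of exon and 1e6 reads). In the order Klf5+/- replicates 1 and 2, then replicates 1 and 2 labelled Klf5-/-, Krt5 had 3024, 1642, 3375 and 3325 RPKM, and Krt10 had 3745, 3125, 6810 and 6339 RPKM. Both keratins were thus abundant in every library. On the first principal component, which carried 80.3% of the variance, the Klf5+/- libraries lay together at -47.7 and -47.4, and those labelled Klf5-/- lay apart from each other at 24.0 and 71.1. The same order of values, Klf5+/- 1 and 2 and then labelled Klf5-/- 1 and 2, is used wherever 4 values follow. Since separate animals are not stated for the libraries of a genotype, p-values speak only of the spread between these 2 pairs of libraries, some of which may be technical.

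Klf5 (ENSMUSG00000005148, mm10 chromosome 14, bases 99298691 to 99313405, plus strand) showed no loss of RNA in the libraries labelled Klf5-/-. Its levels were 62.8, 42.8, 101 and 120 CPM, so both libraries labelled Klf5-/- lay above both Klf5+/- libraries. The log2 fold change, labelled Klf5-/- minus Klf5+/-, was 1.06 (SE 0.23, adjusted p = 0.0533 by edgeR), just short of the threshold of 0.05. With the deleted part not given, a count over all exons is no test of the labels, and the directions below are those of the labels as they stand.

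Of 15848 genes tested, 235 (1.48%) rose with the label Klf5-/- and 637 (4.02%) fell (edgeR, adjusted p under 0.05), together 5.50%. The genes that fell changed more and were less abundant: their median log2 fold change was -2.21 at a median mean level of 9.41 CPM, against 1.23 at 77.03 CPM for the genes that rose. Changes past 8-fold numbered 160 among the genes that fell and 5 among those that rose. Over all genes tested the median log2 fold change was -0.01, and 49.5% lay above 0. Without an adjustment for multiple tests, 1700 genes rose and 2594 fell at p under 0.05.

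The counts depend on which libraries enter the fit. Without the first of them 3 genes rose and 33 fell, and without the second 2 rose and 17 fell, while without the first library labelled Klf5-/- 2424 rose and 2965 fell and without the second 932 rose and 1749 fell. The share of calls that were higher moves with the scaling. Scaled to library totals, 138 genes rose and 1202 fell (10.3% of calls higher, against 26.9% with TMM), with all genes shifted by -0.22 (log2). Scaled to basal keratinocyte genes, an alternative added after the data were seen, 89 rose and 2541 fell (3.38% higher), with a shift of -0.47.

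**Figure D1:**
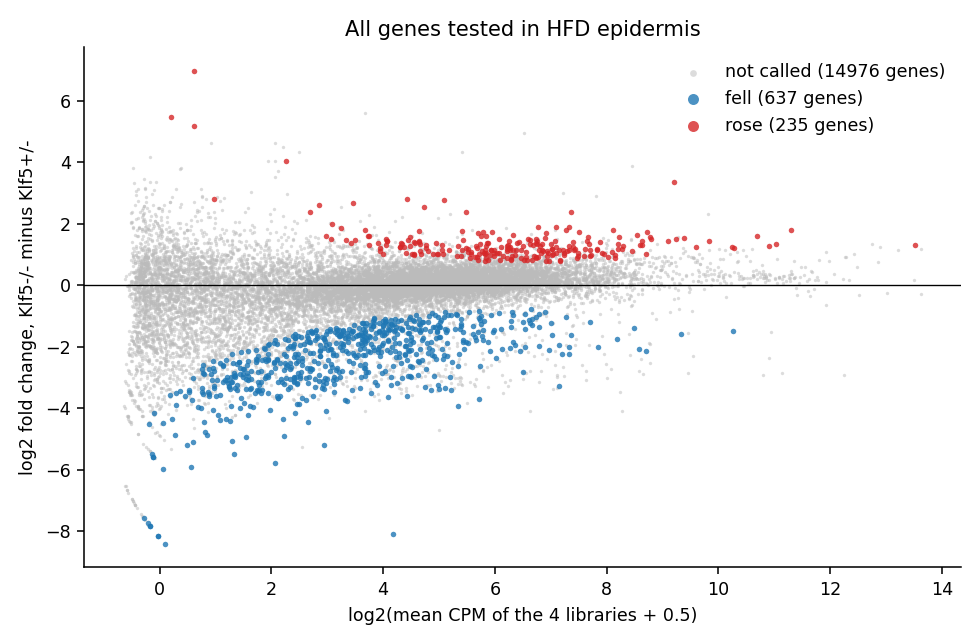
Each point is a gene, with its mean level over the 4 HFD libraries as log2(CPM + 0.5) on the horizontal axis and the log2 fold change, labelled Klf5-/- minus Klf5+/-, on the vertical axis. The 235 genes that rose (red) sit at higher levels and smaller changes than the 637 that fell (blue), whose changes reach past 8-fold.

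Before the values of single genes, the stretches in front of some of their starts are shown, since the series also mapped KLF5 itself. KLF5 peaks, regions where the authors' ChIP-seq of sorted E17.5 epithelium found the factor, come from 1 sample and from another stage and preparation. The promoters printed here are the 250 bases before the start of genes that rose, from RefSeq on GRCm38.p6. The first 4 overlap a KLF5 peak and cover a range of matches to the letters CCNCNCCC (or GGGNGNGG on the other strand), a CACCC and GC-box pattern that KLF and SP factors share. Matches stand in capitals, and overlapping matches run together.
Klf3: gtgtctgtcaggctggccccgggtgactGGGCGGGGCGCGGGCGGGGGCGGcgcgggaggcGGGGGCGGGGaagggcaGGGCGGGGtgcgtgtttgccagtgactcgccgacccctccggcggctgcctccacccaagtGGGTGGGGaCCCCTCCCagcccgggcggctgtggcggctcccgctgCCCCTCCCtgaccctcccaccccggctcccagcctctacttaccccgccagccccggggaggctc
Tmem125: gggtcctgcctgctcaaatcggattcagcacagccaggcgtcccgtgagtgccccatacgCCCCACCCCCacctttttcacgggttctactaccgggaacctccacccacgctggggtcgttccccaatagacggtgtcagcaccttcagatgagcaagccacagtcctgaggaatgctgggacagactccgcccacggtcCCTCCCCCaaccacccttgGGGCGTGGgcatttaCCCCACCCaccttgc
Hmgcs1: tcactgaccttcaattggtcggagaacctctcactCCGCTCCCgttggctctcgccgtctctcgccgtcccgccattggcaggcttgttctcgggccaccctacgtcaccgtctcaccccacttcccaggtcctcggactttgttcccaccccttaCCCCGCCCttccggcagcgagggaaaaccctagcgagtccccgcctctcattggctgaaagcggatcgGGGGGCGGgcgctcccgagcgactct
Cers3: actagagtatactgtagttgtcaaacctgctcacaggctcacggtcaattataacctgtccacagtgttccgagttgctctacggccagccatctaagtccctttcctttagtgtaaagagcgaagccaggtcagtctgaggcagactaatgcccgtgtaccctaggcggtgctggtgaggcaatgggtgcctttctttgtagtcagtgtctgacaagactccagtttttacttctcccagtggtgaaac
Klf3 (chr5:64803271-64803520, plus strand), itself a Kruppel-like factor, held 10 matches, and all 250 bases lay in the peak. Tmem125 (chr4:118543727-118543976, minus strand) held 5 matches, also with 250 bases in the peak. Hmgcs1 (chr13:119690101-119690350, plus strand), the cytosolic HMG-CoA synthase of cholesterol synthesis, held 3 matches with 174 bases in the peak. Cers3 (chr7:66743254-66743503, plus strand), the ceramide synthase of very long chain ceramides, held none of these letters with 122 bases in the peak, whose summit lay 24 bases before the gene's start. The pattern is common: it was found in 45.9% of 32851 promoters of this length, in 63.7% of those of the genes tested here, in 70.4% of those that rose and in 69.3% of those that fell.

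The promoters of Sprr1b and Sprr2h, Sprr genes that rose, are shown for the AP-1 letters TGANTCA, which stand in capitals and read the same on both strands. AP-1 factors of the Jun and Fos families are known to drive Sprr genes.
Sprr1b: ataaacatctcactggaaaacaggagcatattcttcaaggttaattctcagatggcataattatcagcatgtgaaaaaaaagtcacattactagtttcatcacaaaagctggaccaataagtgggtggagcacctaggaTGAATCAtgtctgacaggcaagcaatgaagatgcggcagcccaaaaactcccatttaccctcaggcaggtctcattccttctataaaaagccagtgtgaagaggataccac
Sprr2h: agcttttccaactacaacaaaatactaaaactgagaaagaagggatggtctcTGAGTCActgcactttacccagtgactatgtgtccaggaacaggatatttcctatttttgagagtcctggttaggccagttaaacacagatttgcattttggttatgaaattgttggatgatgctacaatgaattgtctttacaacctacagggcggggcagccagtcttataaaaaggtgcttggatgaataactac
Sprr1b (chr3:92438780-92439029, minus strand) and Sprr2h (chr3:92385435-92385684, plus strand) held 1 AP-1 match and 1 TATAAA match each, and neither window overlapped a KLF5 peak. AP-1 letters stood in 11.8% of the 169 promoters of genes that rose that RefSeq gave, in 4.78% of the 439 of genes that fell and in 4.78% of all 11174 of genes tested. A match is a description of the letters and not a site of binding.

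KLF5 peaks within 1 kb of the gene start stood at 40 of the 235 genes that rose (17.02%, 95% Wilson interval 12.8 to 22.3%) and at 34 of the 637 that fell (5.34%, 3.84 to 7.37%), against 17.99% of all genes tested. Peaks of H3K27ac, a histone mark of active promoters and enhancers, stood at 45.1% of the genes that rose, 17.7% of those that fell and 55.0% of all. Open chromatin by ATAC-seq stood at 71.9%, 54.8% and 75.5%. The share at genes that rose was thus close to that of all genes for KLF5. For H3K27ac it was lower than that of all genes (95% Wilson interval 38.9 to 51.5%). For ATAC its interval, 65.9 to 77.3%, held the share of all genes. At genes that fell, the share was lower than that of all genes in each of the 3 lists, all from sorted E17.5 epithelium. Genes with a KLF5 peak at the start included Klf5 itself and, among those described below, Clic3, Cldn4, Fdps, Dgat2 and Fabp5.

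The genes that rose with the smallest p included keratins, protease inhibitors and a defensin. Krt77, a type II keratin (chromosome 15, 101858732 to 101869705), had 52.2, 54.6, 288 and 262 CPM, 53.4 ± 1.65 against 275 ± 18.2 (mean ± SD of n = 2; log2 fold change 2.36, SE 0.17, adjusted p = 0.0188 by edgeR). The Klf5+/- values were within a few CPM of one another, and those labelled Klf5-/- were less close. Krt77 was chosen by its p, so nothing is read from the gap between the groups. Krt80, a keratin of late differentiation (chromosome 15, 101349571 to 101370125), had 61.7, 51.1, 187 and 180 CPM (1.70, SE 0.18, adjusted p = 0.0337 by edgeR). The protease inhibitor gene Serpinb6c had 45.9, 47.3, 145 and 199 CPM (log2 fold change 1.88). Stfa2, a stefin that inhibits cysteine proteases, had 252, 217, 621 and 691 CPM (1.49). Defb1, a beta-defensin with antimicrobial activity, had 168, 135, 421 and 464 CPM (1.55).

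Among the other genes of this kind were regulators of signalling. Dusp5, a nuclear phosphatase of ERK kinases, had 10.5, 11.7, 33.2 and 42.6 CPM (log2 fold change 1.77). Plk3, a stress-responsive polo-like kinase, had 34.4, 35.0, 88.0 and 109 CPM (1.50). Ndufa4l2, a mitochondrial protein related to respiratory chain subunits, had 53.9, 45.2, 136 and 148 CPM (1.52). Clic3, an intracellular chloride channel protein, had 45.7, 57.8, 150 and 139 CPM (1.48). Fam110a, Tmem125 and the serpin gene Serpina3h rose by log2 fold changes of 1.26, 1.43 and 1.37. In all 12 of these genes both libraries labelled Klf5-/- lay above both Klf5+/- libraries, as they did in 27.4% of all genes tested, and their edgeR adjusted p lay between 0.0188 and 0.0337. The 12 were chosen by their p, so nothing is read from that order. With either Klf5+/- library left out, 1 of the 12 stayed past the threshold, Krt77 each time, while the log2 fold changes lay between 1.30 and 2.34 and between 1.22 and 2.40, against 1.26 to 2.36 with all 4 libraries. Scaled to basal keratinocyte genes 8 of the 12 passed.

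Genes that fell with the smallest p included keratins of the hair follicle. Krt71 (chromosome 15, 101733950 to 101743109), a keratin of the inner root sheath that surrounds the growing hair, had 249, 264, 23.8 and 28.6 CPM, 257 ± 10.3 against 26.2 ± 3.34 (mean ± SD of n = 2; log2 fold change -3.29, SE 0.19, adjusted p = 0.0126 by edgeR). Its inner root sheath partners Krt25 and Krt28 had 150, 164, 19.1 and 25.5 CPM (-2.82) and 63.0, 66.0, 9.97 and 6.28 CPM (-2.99). Krt35, a keratin of the hair shaft, had 65.9, 49.6, 6.89 and 4.23 CPM (-3.38). Every Klf5+/- value of these 4 keratins was more than 5 times the highest value labelled Klf5-/-. They were chosen by their p, so nothing is read from that gap.

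Igfbp5, Igfbp6 and Igfbp4, which encode insulin-like growth factor binding proteins, were also among these genes. Igfbp5 had 38.4, 39.9, 5.14 and 4.73 CPM (log2 fold change -2.99, SE 0.21), Igfbp6 had 50.4, 47.9, 10.9 and 9.15 CPM (-2.30) and Igfbp4 had 134, 124, 36.8 and 30.0 CPM (-1.95). Col5a3, a chain of type V collagen (chromosome 9, 20770050 to 20815067), had 62.0, 72.2, 6.72 and 5.99 CPM (-3.40, SE 0.21, adjusted p = 0.0126 by edgeR). Prg4, which encodes the lubricant proteoglycan lubricin, went from 303 and 300 counts to 11 and 16 (-4.35). Cdo1, a cysteine dioxygenase that breaks down cysteine, had 55.9, 81.6, 10.5 and 11.6 CPM (-2.64). Prr9 and the urea cycle enzyme gene Cps1 completed the 12, at -3.33 and -5.77. Of these 12 genes, 11 stayed past the threshold without the first and 11 without the second Klf5+/- library, Prg4 being the exception each time (adjusted p = 0.051 by edgeR and 0.0695), and all 12 did under every other setting tried.

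**Figure D2:**
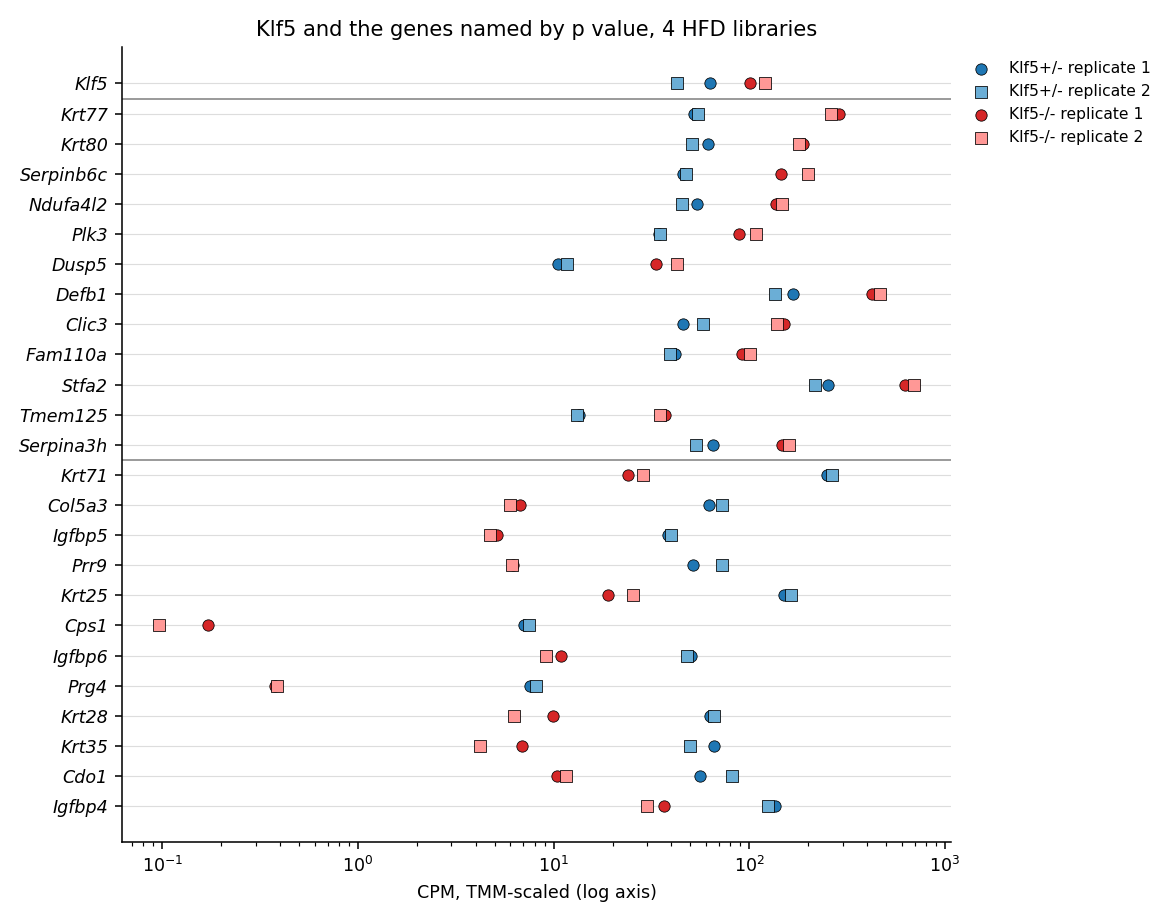
Levels of Klf5 (top row), the 12 genes that rose (middle) and the 12 that fell (bottom) with the smallest p, in TMM-scaled CPM on a log axis, 1 symbol for each of the 4 libraries. The Klf5+/- libraries (blue) and those labelled Klf5-/- (red) do not overlap in any row, and the symbols of a genotype lie close together in most rows. All rows but that of Klf5 were chosen by p, so nothing is read from this. Of all genes tested, both libraries labelled Klf5-/- lay above both Klf5+/- libraries in 27.4% and below both in 32.7%.

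Markers of dermal cells were far higher in the Klf5+/- libraries. Summed over the 17 fibroblast markers, levels were 19963, 23968, 5944 and 1501 CPM. All 17 lay below 0 in log2 fold change, with a median of -2.85, but 2 passed the test. Among all genes tested 49.5% lay above 0 and 4.02% fell. Mfap5, a microfibril protein, had 76.8, 116, 10.3 and 4.66 CPM (log2 fold change -3.69), and Postn, the matrix protein periostin, had 1648, 1966, 770 and 521 CPM (-1.49). The collagen gene Col1a1, taken as a defining marker of the list, had 2828, 3459, 738 and 87.3 CPM and did not pass (-2.93, SE 1.12, adjusted p = 0.206 by edgeR). In bulk RNA, fewer cells of a type and less RNA per cell cannot be told apart, and which share of the fall of any gene comes with these cells was not tested.

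Markers of blood vessels followed the same order of libraries, with summed levels of 593, 645, 115 and 22.6 CPM over 13 endothelial genes. All 13 lay below 0 and 3 fell by the test (4.02% of all genes did). Tek, the angiopoietin receptor, had 23.0, 25.5, 3.26 and 1.11 CPM (log2 fold change -3.49), and the VEGF receptors Kdr and Flt1 fell by 3.01 and 2.30 on the log2 scale. Smooth muscle and pericyte markers summed to 563, 468, 174 and 57.1 CPM, with 9 of 10 below 0 and 1 called, the potassium channel subunit Abcc9 (-3.05). Mast cell markers summed to 2060, 2184, 602 and 61.9 CPM, with 8 of 8 below 0 and none called, the smallest p being that of Kit (adjusted p = 0.162 by edgeR). In these lists the second library labelled Klf5-/- was lower than the first by a wide margin, so the 2 libraries of that genotype were not alike in the summed levels of these markers. The origin of that gap was not tested. Skeletal muscle markers summed to 3223, 931, 1025 and 113 CPM, and so differed between the Klf5+/- libraries as well, with none of 8 called. Without the first library labelled Klf5-/- the median log2 fold change was -3.96 for fibroblast and -4.80 for endothelial markers. Without the second it was -2.02 and -2.37. Which of these markers were called depended on the library left out, as it did for all genes, and without either Klf5+/- library none was called.

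No marker of immune or blood cells was called higher by the main test, against 1.48% of all genes tested. The share of all genes called lower was 4.02%. Of 14 macrophage and dendritic cell markers tested, 4 fell: the lectin Clec10a, the mannose receptor Mrc1, the lysozyme Lyz2 and the Fc receptor subunit Fcer1g, with log2 fold changes of -4.45, -2.38, -1.87 and -1.23. Another 4 of the 14 lay above 0, up to 1.91 for the integrin gene Itgax (adjusted p = 0.0578 by edgeR), and DESeq2 called 2 members higher. The list summed to 493, 509, 359 and 460 CPM. T cell markers summed to 11.6, 13.1, 24.6 and 22.7 CPM. Of the 9 tested, 7 lay above 0 and none was called, and the smallest p was that of the T cell receptor subunit Cd3g (3.33, 3.70, 9.01 and 8.57 CPM, log2 fold change 1.32, adjusted p = 0.0539 by edgeR). Erythroid genes summed to 899, 946, 323 and 417 CPM, with 4 of 8 called lower: the globins Hbb-bt, Hbb-bs and Hba-a1 and the haem enzyme gene Alas2. Globin genes have near-identical copies, so reads between them are less certain. Schwann cell markers had 1 of 9 called lower, and melanocyte, Merkel cell and neutrophil markers had none of 9, 8 and 5 called. Of the neutrophil markers, 3 of 8 were at 0 in both libraries labelled Klf5-/-.

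**Figure D3:**
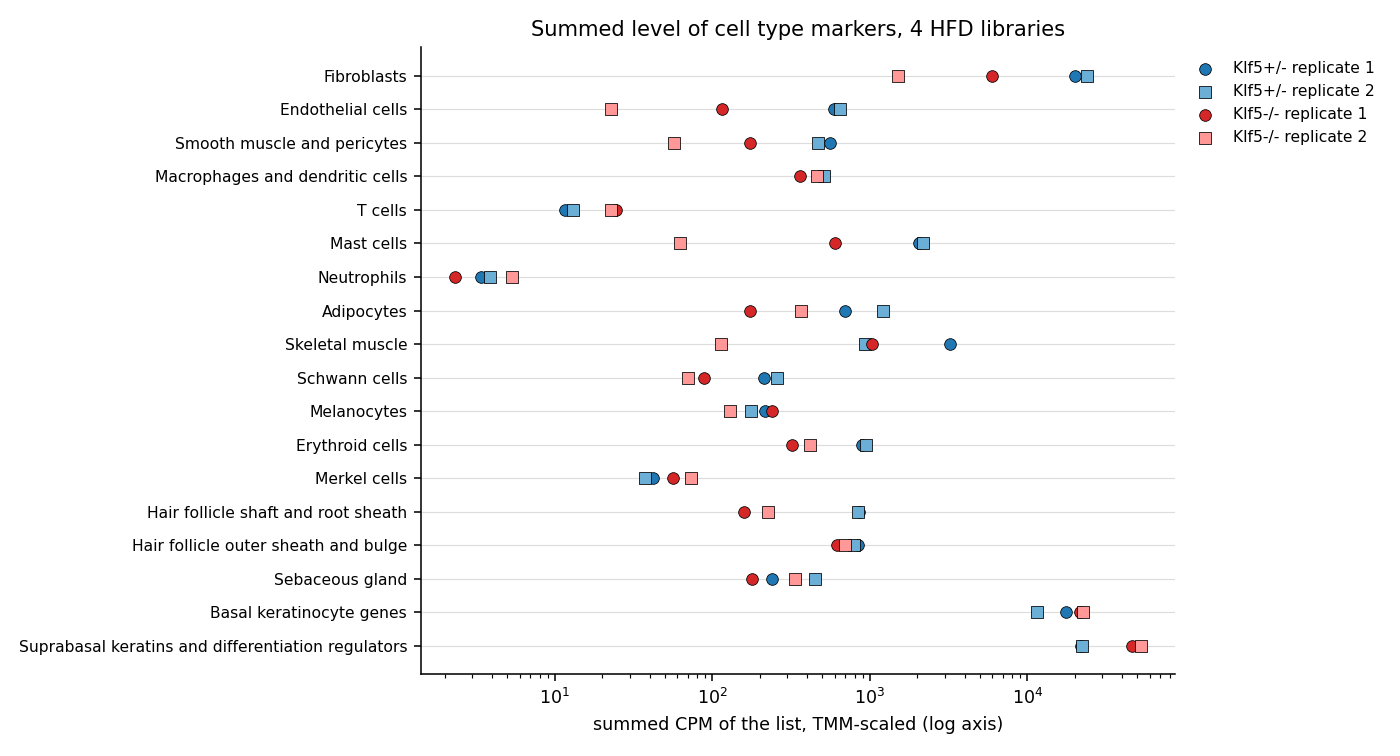
Summed level of each list of cell type markers in the 4 HFD libraries, in TMM-scaled CPM on a log axis. Fibroblast, endothelial, smooth muscle and mast cell lists lie lowest in the second library labelled Klf5-/- (light red square) and next lowest in the first (red circle), while the basal and suprabasal keratinocyte lists lie higher in both than in the Klf5+/- libraries (blue).

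Genes of the hair shaft and its sheaths were lower in both libraries labelled Klf5-/-. Of 20 shaft and root sheath genes tested, 12 fell (4.02% of all genes did) and none rose, with a median log2 fold change of -2.22. The list summed to 851, 847, 160 and 225 CPM. Here the sum of the second library labelled Klf5-/- was above that of the first, unlike in the dermal lists. Single members differed in this: Krt71 and Krt25 were higher in the second library, and Krt28 and Krt35 lower. Beside Krt71, Krt25, Krt28 and Krt35, the root sheath keratins Krt72, Krt73 and Krt27 fell by 3.19, 2.30 and 1.79 on the log2 scale, and the shaft keratins Krt81, Krt33b and Krt86 by 3.68, 3.40 and 3.57. Padi3, which converts arginine to citrulline in hair proteins, had 11.8, 10.5, 1.71 and 3.33 CPM (-2.14), and Msx2, a homeobox factor of the hair matrix, had 7.17, 5.87, 1.75 and 2.10 CPM (-1.76). Of these 20 genes, 4 were called without the first Klf5+/- library and 4 without the second.

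Of 12 outer sheath and bulge genes, 1 fell (4.02% of all genes did), the companion layer keratin Krt75 (30.4, 31.6, 5.14 and 8.24 CPM, log2 fold change -2.21). The list summed to 841, 799, 621 and 699 CPM. By voom 5 of these 12 were called lower. The stem cell receptor gene Lgr5 had 10.1, 13.8, 4.83 and 4.18 CPM (-1.40, adjusted p = 0.0503 by edgeR). Of 12 sebaceous gland genes, 2 fell: Mgst1, a membrane glutathione transferase (76.5, 107, 31.7 and 31.8 CPM, -1.53), and Pparg. Another 5 of the 12 lay above 0, the list median was -0.23, and the list summed to 238, 446, 180 and 335 CPM, so the genotypes overlapped. Adipocyte markers summed to 701, 1221, 174 and 364 CPM, with 2 of 9 called lower, the lipid droplet coat gene Plin1 (-2.47) and Fabp4 (-2.14). Of the 9, however, 3 lay above 0, up to 2.11, and the list median was -1.48. Fabp4, whose levels are given below, was a large part of this sum.

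Genes of suprabasal differentiation were higher in the libraries labelled Klf5-/-. All 27 members tested lay above 0 (49.5% of all genes did), 8 rose (1.48% of all genes did) and the median log2 fold change was 0.94. Beside Krt77 and Krt80, Cldn4, a tight junction claudin, had 54.3, 66.0, 141 and 167 CPM (log2 fold change 1.35, SE 0.19, adjusted p = 0.0338 by edgeR). The list as a whole summed to 21934, 22230, 45942 and 52767 CPM. Other members called, named after their values were seen, included the desmosome genes Dsp (1.33) and Dsg1b (1.73), the differentiation regulator Grhl3 (1.29) and the keratin Krt1 (6140, 7286, 15215 and 18211 CPM, 1.32). Basal keratinocyte genes, with 16 of 17 above 0, had a median of 0.56 and none called, the smallest p being that of the laminin gene Lama3 (0.82, adjusted p = 0.0653 by edgeR). Basal genes summed to 17595, 11536, 21570 and 22645 CPM. Scaled to those basal genes, the suprabasal median was 0.46 with 3 members called.

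**Figure D4:**
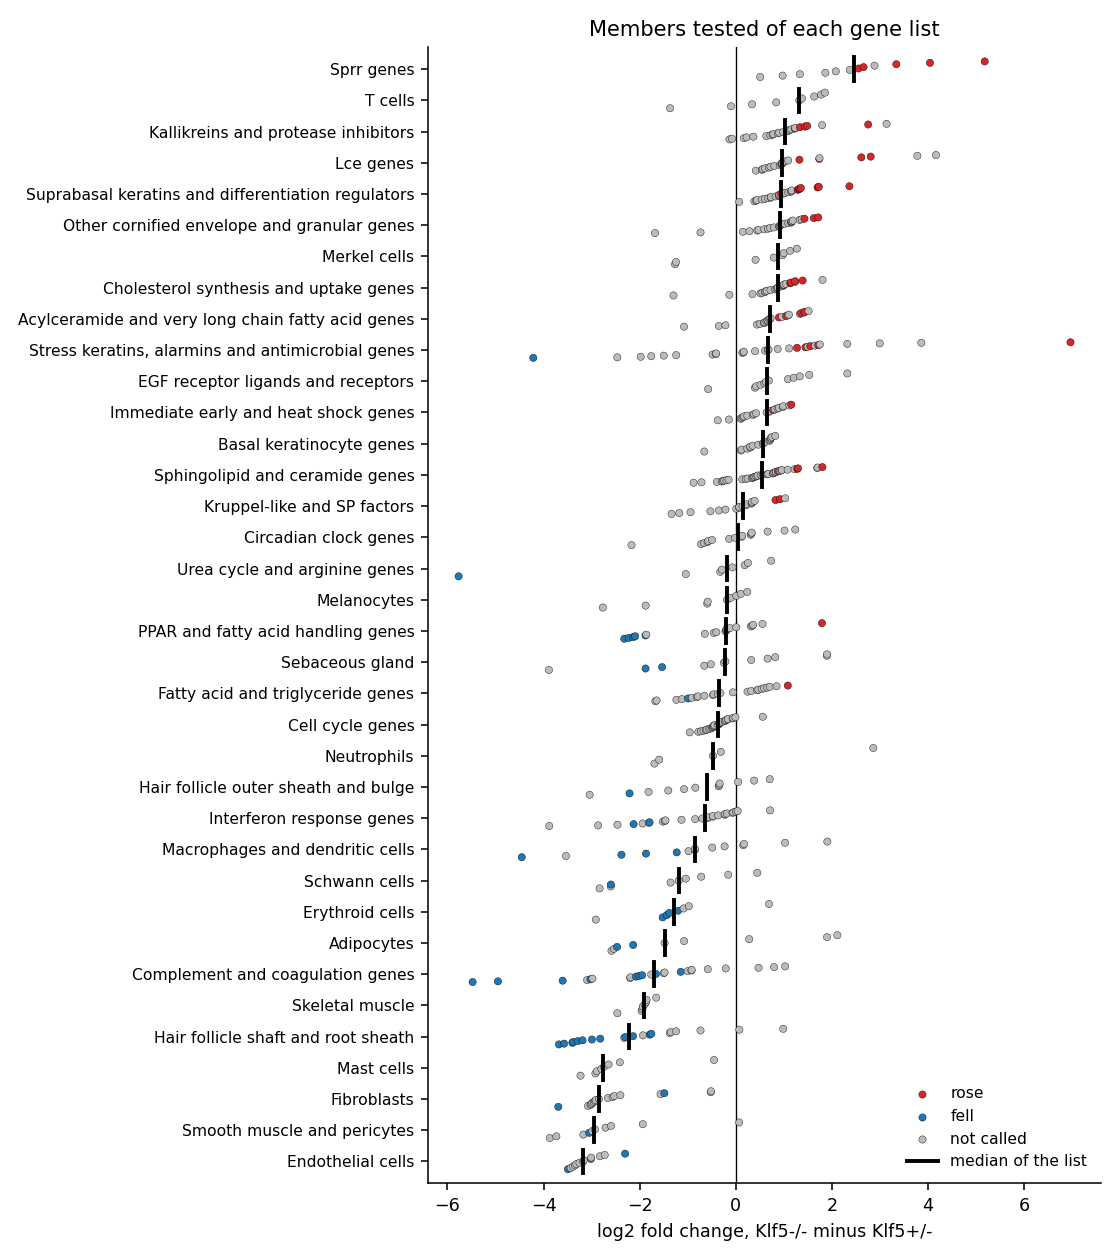
Log2 fold change, labelled Klf5-/- minus Klf5+/-, of every member tested of each gene list, ordered by the list's median (black bar), with genes that rose in red and genes that fell in blue. Cornified envelope, protease and suprabasal lists sit to the right of 0, and dermal, hair shaft and complement lists to the left. In grey are members not called, and 12 of 20 hair shaft members are called, against 5.5% of all genes tested.

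Sprr proteins, which cross-link the envelope, gave the list with the highest median. All 12 Sprr genes tested lay above 0 (49.5% of all genes did) with a median of 2.46, and 5 rose (1.48% of all genes did). Sprr2a1, Sprr2a2 and Sprr3 were too low to test. Sprr1b (chromosome 3, 92436809 to 92438779), whose promoter is printed above, had 102, 111, 590 and 1569 CPM (log2 fold change 3.34, SE 0.51, adjusted p = 0.039 by edgeR). Sprr2h had 7.84, 7.29, 29.4 and 59.5 CPM (2.56) and Sprr2g 3.53, 2.20, 12.0 and 24.2 CPM (2.66). Sprr2i went from 20 and 18 counts to 113 and 515, and Sprr2f from 1 and 3 counts to 29 and 125. In each of the 5 the highest value was that of the second library labelled Klf5-/-. Sprr2 genes are close copies of one another, so their reads are less certain.

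Lce genes lay side by side on the same chromosome and were all higher, 21 of 21, with a smaller median of 0.96 and 5 called. Beside these counts, 49.5% of all genes tested lay above 0 and 1.48% rose. Scaled to basal keratinocyte genes the Lce median was 0.45, with 6 called higher. Lce3d had 5.65, 4.92, 20.7 and 53.2 CPM (log2 fold change 2.81), Lce3f 1.37, 2.39, 7.50 and 15.5 CPM (2.61) and Lce3c 22.6, 27.9, 57.5 and 111 CPM (1.74). Lce3 genes are known for their induction in disturbed skin. The constitutive members called were Lce1j and Lce1l, at 0.95 and 1.32. Other envelope and granular layer genes had 24 of 26 above 0, a median of 0.93 and 4 called. These were Cdsn, the adhesive corneodesmosin (183, 244, 564 and 587 CPM, 1.43), Cnfn, cornifelin (174, 218, 517 and 771 CPM, 1.72), the protease inhibitor Cst6 (1.15) and Rptn, repetin (178, 186, 393 and 731 CPM, 1.62). Scaled to basal keratinocyte genes the median of this envelope and granular list was 0.47, with 2 called higher and 2 lower.

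Sprr, Lce, Rptn and the S100 genes share the epidermal differentiation complex, here S100a1 to S100a10 on chromosome 3 (90511034 to 93564643). Of 65 genes tested there, 53 lay above 0, 11 rose and 3 fell, with a median log2 fold change of 0.95. Of all genes tested, 49.5% lay above 0, 1.48% rose and 4.02% fell, so the share that fell here was near that of all genes. Loricrin, the bulk protein of the envelope (Lor), had 2641, 2349, 5718 and 4922 CPM and did not pass (1.09, SE 0.24, adjusted p = 0.0533 by edgeR). Flg, the filaggrin precursor, had 1698, 2872, 2022 and 4866 CPM, so its groups overlapped (0.59, adjusted p = 0.483 by edgeR). The genes of the complex that fell were Prr9 (51.5, 72.4, 6.17 and 6.13 CPM), S100a3 (52.5, 33.6, 8.81 and 7.10 CPM, -2.44) and S100a6 (216, 201, 98.6 and 104 CPM, -1.04). S100a3 is a protein of the hair cuticle and S100a6 a widely expressed calcium-binding protein. S100a8 and S100a9, the alarmin pair of inflamed skin, lay below 0 (-1.24 and -0.41) and did not pass.

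**Figure D5:**
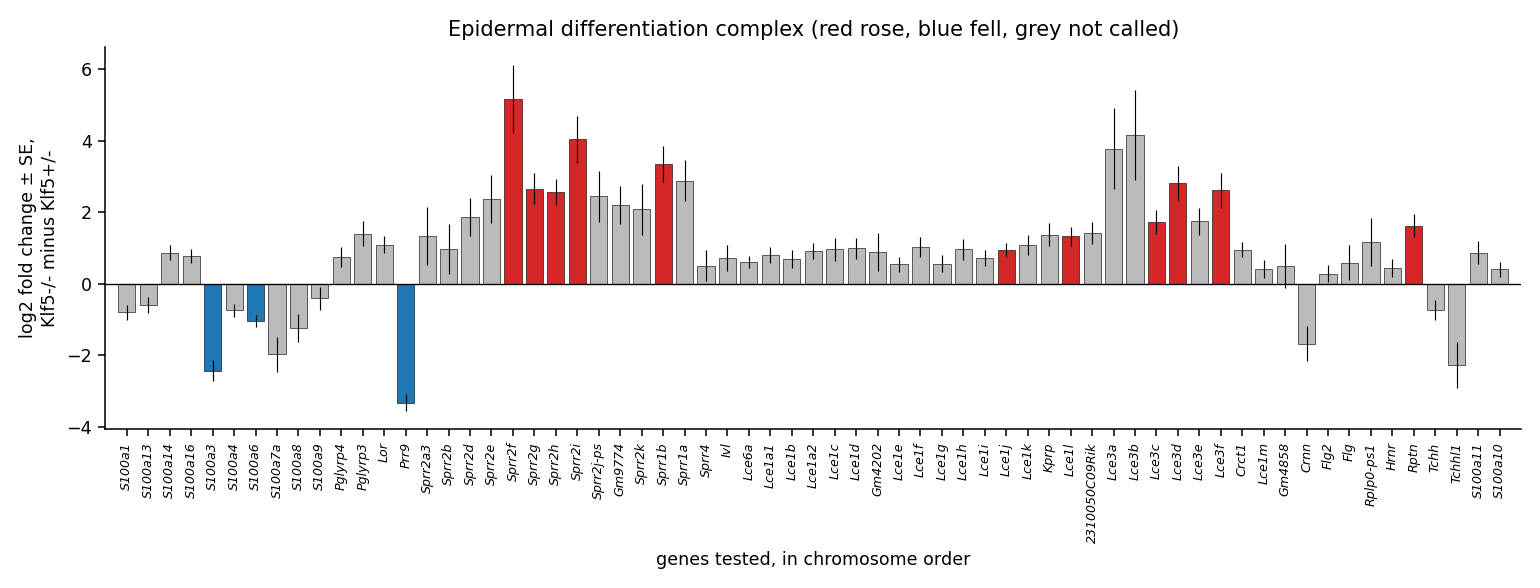
Log2 fold change ± SE, labelled Klf5-/- minus Klf5+/-, of the 65 genes tested in the epidermal differentiation complex, in chromosome order. Sprr2, Sprr1b and Lce3 genes form the highest bars, while 3 genes fell (blue): S100a3, S100a6 and Prr9. That is near the share of all genes tested that fell (4.02%).

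Proteases of shedding and their inhibitors rose in part. Of 24 tested, 22 lay above 0 (49.5% of all genes did) and 5 rose (1.48% of all genes did), with a median of 1.03. Scaled to basal keratinocyte genes that median was 0.53, with 2 called higher. Klk5, which starts the kallikrein cascade, had 133, 199, 396 and 443 CPM (log2 fold change 1.34), and Klk6 had 8.91, 8.43, 34.1 and 82.8 CPM (2.75). The cysteine protease inhibitors Stfa2, Stfa1 and Csta1 (listed as Csta) rose by 1.49, 1.44 and 1.23. Stfa genes are near-identical copies, so the split between them is uncertain.

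Of 29 stress and antimicrobial genes tested, 20 lay above 0, 5 rose and 1 fell. The shares of all genes were 49.5% above 0, 1.48% that rose and 4.02% that fell. The share of this list that fell was thus near that of all genes. Il1f9, which encodes interleukin-36 gamma, had 61.3, 68.6, 144 and 170 CPM (log2 fold change 1.27). The gap junction genes Gjb2 and Gjb6, named after their values were seen, rose by 1.72 and 1.45, Gjb2 from 80.9 and 87.5 to 207 and 346 CPM. The beta-defensin Defb3 went from 0 and 1 counts to 18 and 143. Lcn2, the iron-scavenging lipocalin, fell from 174 and 187 counts to 6 and 12 (-4.21, SE 0.48, adjusted p = 0.0337 by edgeR). Of 12 EGF receptor ligand list genes 11 lay above 0 with none called (Areg, amphiregulin, 2.74, 4.05, 10.1 and 9.44 CPM, adjusted p = 0.0516 by edgeR). Of 26 interferon response genes 23 lay below 0 with 2 called, the restriction factors Bst2 (-1.79) and Rsad2 (-2.13). Of 21 immediate early and heat shock genes 2 rose, Hspa1b (47.6, 47.9, 92.2 and 120 CPM, 1.15) and Junb (0.78), the first of which has a near-identical copy.

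Enzymes of the lipid barrier were higher in part. Of 38 sphingolipid and ceramide genes tested, 30 lay above 0 and 4 rose, against 49.5% and 1.48% of all genes tested. The median of the list was 0.54. Sptlc3, a subunit of the serine palmitoyltransferase that starts sphingolipid synthesis (chromosome 2, 139493913 to 139637674), had 56.5, 81.3, 180 and 300.3 CPM (log2 fold change 1.80, SE 0.31, adjusted p = 0.041 by edgeR). Cers3 (chromosome 7, 66743504 to 66823693), whose promoter is printed above, had 82.0, 105, 188 and 265 CPM (1.28, SE 0.24, adjusted p = 0.0418 by edgeR). Sphk1, which phosphorylates sphingosine, had 45.9, 40.3, 93.9 and 118 CPM (1.29), and Smpd1, the acid sphingomyelinase, 68.4, 81.1, 143 and 132 CPM (0.88).

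Acylceramides, the skin lipids with an added linoleic acid, need further enzymes, of which 20 of 23 lay above 0 and 4 rose (median 0.72). The shares of all genes were 49.5% above 0 and 1.48% that rose. Alox12b, the lipoxygenase that oxidises the acylceramide, had 88.5, 129, 257 and 328 CPM (log2 fold change 1.43). Sdr9c7, which acts after it, had 113, 135, 224 and 237 CPM (0.90). Pnpla1, which adds the linoleic acid, had 39.3, 47.5, 86.8 and 92.6 CPM (1.05), and Cyp4f39, the hydroxylase of very long chain fatty acids, had 12.3, 9.60, 23.2 and 32.8 CPM (1.36). The medians of both lists depend on the scaling. Scaled to basal keratinocyte genes the sphingolipid median was 0.08 with 2 genes called higher and 1 lower, and the acylceramide median was 0.22 with none called higher and 1 lower. Beside both lists stand the suprabasal genes, whose median was 0.94, and what part of the one goes with the other was not tested.

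Cholesterol synthesis genes were likewise mostly higher, 22 of 24 above 0 (49.5% of all genes were) with a median of 0.87, and 5 rose (1.48% of all genes did). Sqle, the squalene epoxidase, had 44.9, 49.7, 98.1 and 150 CPM (log2 fold change 1.39, SE 0.24, adjusted p = 0.039 by edgeR), and Hmgcs1 had 148, 132, 258 and 300 CPM (0.99). Scaled to basal keratinocyte genes the median was 0.37 with 1 gene called higher and 1 lower, and scaled to library totals 2 were called higher. Fdps and Tm7sf2, also called, were named after their values were seen, at 1.14 and 1.24.

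Genes of fatty acid uptake and storage were called in both directions. Of 20 PPAR and fatty acid handling genes 5 fell and 1 rose, against 4.02% and 1.48% of all genes tested. Cd36, the fatty acid translocase, had 166, 236, 40.8 and 53.4 CPM (log2 fold change -2.09), the lipase inhibitor Angptl4 had 23.4, 37.9, 5.65 and 6.59 CPM (-2.32), and Fabp4, the fatty acid binding protein of adipocytes and vessels, had 526, 830, 129 and 180 CPM (-2.14). The lipase Lpl and the nuclear receptor Pparg fell by 2.23 and 1.88 on the log2 scale and, like Fabp5, were named after their values were seen. Fabp5, the fatty acid binding protein of keratinocytes, rose from 1020 and 1248 to 3431 and 4427 CPM (1.79, SE 0.26, adjusted p = 0.0339 by edgeR). Fabp4, Cd36 and Lpl are also expressed by fat cells and endothelium, whose marker sums are given above, and the part of these cells was not tested. Of 24 fatty acid and triglyceride genes, Dgat2, the last enzyme of triglyceride synthesis, rose (156, 196, 370 and 376 CPM, 1.08), and Plin2, a lipid droplet coat protein, fell (61.5, 80.0, 34.5 and 36.6 CPM, -0.99). No other of these 24 was called, and the share that fell was near the 4.02% of all genes.

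Complement and coagulation genes were mostly lower, 21 of 24 below 0 with a median of -1.71, and 9 fell. For all genes tested, 49.5% lay above 0 and 4.02% fell. Serping1, the inhibitor of C1, had 29.3, 48.1, 4.73 and 1.71 CPM (log2 fold change -3.60, SE 0.57, adjusted p = 0.0415 by edgeR). C1ra and C1s1 (listed as C1s), the proteases of that complex, fell by 3.02 and 2.07 on the log2 scale, and Cfp, properdin of the alternative pathway, by 1.66. Plat, the tissue plasminogen activator, had 20.0, 23.6, 6.24 and 4.61 CPM (-2.01), and Pros1, protein S, 64.4, 80.5, 34.3 and 31.2 CPM (-1.15). The counts of C4b were 117, 185, 3 and 3, and those of the fibrinogen gene Fga 170, 189, 7 and 3. Fibroblasts and vessels are known sources of several of these proteins, and the part of those cells, whose marker sums are given above, was not tested.

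Among 19 Kruppel-like and SP factors 13 lay above 0 and 2 rose, against 49.5% and 1.48% of all genes tested. The list's median was 0.14, and -0.34 when scaled to basal keratinocyte genes. Klf3 (chromosome 5, 64803523 to 64830129), a repressor of the family whose promoter is printed above, had 35.4, 35.1, 65.2 and 68.0 CPM (log2 fold change 0.92, SE 0.16, adjusted p = 0.0391 by edgeR). Sp6, a factor of skin appendages, had 35.8, 38.3, 61.1 and 70.3 CPM (0.83, adjusted p = 0.0496 by edgeR). Klf15 had 11.0, 9.92, 3.97 and 5.29 CPM and did not pass (-1.17, adjusted p = 0.0671 by edgeR).

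Of 29 cell cycle genes 28 lay below 0 and none was called, while 49.5% of all genes lay above 0. The list's median was -0.37 on the log2 scale. That median was -0.84 with 6 called lower when scaled to basal keratinocyte genes, and 11 were called lower without the first library labelled Klf5-/- and also in the fit of all 10 libraries. The S and M phase cyclin Ccna2 had 74.4, 81.1, 51.1 and 39.7 CPM (log2 fold change -0.78, adjusted p = 0.0662 by edgeR), and the member above 0 was the cell cycle inhibitor Cdkn1a (0.56, adjusted p = 0.0985 by edgeR). Circadian clock genes split evenly, 8 above and 8 below 0, and none of the 12 mitochondrially encoded genes tested passed. In the urea cycle list 1 of 8 fell, Cps1, from 283 and 275 counts to 5 and 4. Of all these lists, those for Sprr, Lce, envelope, suprabasal, kallikrein, sphingolipid, acylceramide and cholesterol genes had at most 1 member called higher without either one of the Klf5+/- libraries.

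The E17.5 libraries allow the genotype difference of this set to be compared with that of embryonic epithelium. The contrast of the differences (HFD minus E17.5), tested in a fit of all 10 libraries, passed for 2534 of 17260 genes (14.7%), 1221 higher (7.07%) and 1313 lower (7.61%). The genotype labels at E17.5 are unchecked as well. The predicted gene Gm10294 had 3462 and 2360 counts with the label Klf5+/- and 187 and 143 with the label Klf5-/- in the HFD set. In E17.5 replicate 3 of each genotype its counts ran the other way, 361 with the label Klf5+/- and 3371 with the label Klf5-/-. Without replicate 3 of both E17.5 genotypes, an alternative added after the data were seen, 1644 genes passed, 768 higher and 876 lower. Tmem125 was higher by 1.43 here and had a log2 fold change of -0.57 at E17.5 (difference 2.01, adjusted p = 0.00267 by edgeR). Clic3 had 1.48 here and -0.48 there (difference 1.97, adjusted p = 0.00267 by edgeR). The largest differences downward among the named genes were those of Krt35 (-8.39), Col5a3 (-6.93) and Prr9 (-5.57). At E17.5 the log2 fold changes of these 3 genes were 5.01, 3.53 and 2.25, and none passed there (adjusted p = 0.16, 0.355 and 0.428 by edgeR). For Krt77 the difference did not pass (0.73, adjusted p = 0.383 by edgeR), with 1.64 at E17.5. Sphingolipid and acylceramide genes that rose here all passed this test upward, with differences from 1.25 (Smpd1) to 2.28 (Cyp4f39). Among the Lce genes called here none passed (the smallest adjusted p was 0.503), and among the 5 Sprr genes Sprr1b and Sprr2h did, at 3.18 and 2.36. These lipid, Lce and Sprr genes were chosen for rising here, which is a part of this contrast. Nothing is therefore read from how many passed upward, beside 7.07% of all genes tested.

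The sets differ in more than their title. HFD tissue was not sorted and its libraries were made with another kit. Xist, the RNA of the inactive X chromosome, had 0 to 5 counts in the HFD libraries and 17337 to 53513 at E17.5, and the Y-linked Ddx3y had 3859 to 5624 counts in the HFD libraries and 0 to 2 at E17.5. Stage, sorting, kit and sex-linked expression cannot be told apart as the origin of a difference between the sets.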

How the data were processed

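The counts that the authors deposited are whole reads for each Ensembl gene. The submitters' processing notes name STAR 2.6.0b, HTSeq and mm10 (GRCm38) but no strand setting, so overlapping and antisense genes are uncertain. RPKM values deposited beside the counts were the same counts over exon length and all reads of the file, and were used only to compare levels between genes. Reads on no gene (13.38 to 16.46% of all reads; those without a unique alignment, 7.95 to 9.09% of all reads, are part of this) stayed out of library sizes. Genes with near-identical copies lose such reads. For peaks the submitters' processing notes name MACS2, without its control or threshold; the fold over background, a ratio, and the −log10 q value of each deposited peak are the authors'.

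Counts were fitted with edgeR 4.0.16 in R 4.3.3 (TMM, filterByExpr, robust quasi-likelihood test, Benjamini-Hochberg adjustment over all genes tested, threshold 0.05), genotype being the only factor. SE is the log2 fold change divided by the square root of F. Libraries of a group differed by more than sampling noise (chi-square per degree of freedom 58.1 and 124). The difference between the sets was tested as a contrast over the 4 groups of all 10 libraries. DESeq2 1.42.0 and limma 3.58.1 (voom) served as alternatives, beside other scalings and filters and leaving out libraries.

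Named genes are Klf5, the 12 that rose and 12 that fell with the smallest p among genes called at a mean of at least 1 CPM, the 3 members of each list with the smallest p, called members of the Sprr, Lce, kallikrein, sphingolipid, acylceramide, complement and cell type lists, and genes of the epidermal differentiation complex. Some list members that this rule names are not reported here. The members and the 38 lists (647 of 650 symbols matched) were chosen with earlier results of these data known. A peak was counted at a gene when it overlapped the 1 kb on either side of its start; promoters are RefSeq's on GRCm38.p6, the same build. Intervals and floors cover counting error only.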

Additional observations from a re-analysis of the deposited data

Results flagged for a closer look

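The genotype difference of the HFD libraries differed from that of the E17.5 libraries for 21 of the 25 named genes (edgeR contrast of the 2 differences over 10 libraries, adjusted p under 0.05), against 2534 of 17260 genes tested (14.7%). Of the 25, 24 were chosen by the smallest p in the HFD comparison, which is a part of this contrast, so nothing is read from that count. Among Klf5 and the genes that rose, the difference (HFD minus E17.5, log2) was 1.06 for Klf5, 1.63 for Krt80, 2.47 for Serpinb6c, 2.23 for Ndufa4l2, 1.52 for Dusp5, 1.23 for Defb1, 1.97 for Clic3, 1.33 for Fam110a, 1.95 for Stfa2, 2.01 for Tmem125 and 0.98 for Serpina3h. Among the genes that fell it was -3.34 for Krt71, -6.93 for Col5a3, -3.11 for Igfbp5, -5.57 for Prr9, -3.96 for Krt25, -2.56 for Igfbp6, -4.49 for Prg4, -8.39 for Krt35, -2.70 for Cdo1 and -2.32 for Igfbp4. For Krt77, Plk3, Cps1 and Krt28 the difference did not pass. Without the third E17.5 libraries of both genotypes that of Dusp5 did not pass either (1.16, adjusted p = 0.0526 by edgeR). The sets differ in stage, sorting, library kit and sex-linked expression, which cannot be told apart.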

How the results depend on the processing

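Calls of the HFD comparison (872; 235 higher, 637 lower) numbered 1340 (138 higher, 1202 lower) scaled to library totals, 2396 (884, 1512) with no low-count filter, 2906 (1156, 1750) with DESeq2's Wald test, 1942 (531, 1411) by voom, 3672 (1623, 2049) when all 10 libraries shared 1 fit and 2630 (89, 2541) scaled to basal keratinocyte genes, the last chosen after seeing the data. Of calls, 36.9% were higher with no filter, 39.8% with DESeq2 and 44.2% in the fit of all libraries, against 26.9%; why was not tested. With the replicate number as a block there were 1520 calls (658 higher); the numbers are not stated to pair libraries, and deviations of same-numbered libraries correlated at 0.22. Leaving out 1 library gave 19 to 5389 calls (2 to 2424 higher, 17 to 2965 lower). With 1 library left in a group, that library is assumed to vary like the other group. The difference between the sets gave 1266 (without the second Klf5+/- HFD library) to 4467 calls (without the first labelled Klf5-/-), 602 to 2151 higher and 604 to 2316 lower. It gave 1322 without the first Klf5+/- HFD library, 1629 without the second HFD library labelled Klf5-/-, 1644 (768 higher, 876 lower) without the third E17.5 libraries of both genotypes (chosen after seeing the data), and 1365, 1426 and 1587 without the second Klf5+/- and the first and second E17.5 libraries labelled Klf5-/-; every other alternative stayed within 1.5 times of 2534. Among 166 single genes, the direction changed for the Y-linked Ddx3y (-0.10), Eif2s3y (-0.14) and Kdm5d (-0.14), scaled to basal keratinocyte genes, where 35 called genes no longer passed; without a Klf5+/- library 98 and 103 no longer did. KLF5 peaks within 5 kb stood at 25.1% of genes that rose, 8.63% of those that fell and 21.6% of all, and peaks with a −log10 q of at least 5 at 11.5%, 2.83% and 11.8%. List medians that changed sign under at least 1 setting were those of the Kruppel-like, clock, fatty acid and triglyceride, mitochondrial, neutrophil, melanocyte, sebaceous and sex-linked lists.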

Other observations

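Some predicted genes, chosen with their values in view, were near 0 in 1 genotype of this set. Gm6969 (chromosome 12, 24638669 to 24639010) had counts of 1433 and 1280 with the label Klf5+/- and of 2 and 7 with the label Klf5-/-, against 4 to 19 in the 6 E17.5 libraries. Gm4737 (chromosome 16, 46152997 to 46155077) had 579 and 503 counts against 6 and 22, and Gm9816 (chromosome 16, 62716953 to 62718810) had 139 and 152 against 2 and 6. Gm10294 (chromosome 7, 72648757 to 72649311) had 3462 and 2360 counts against 187 and 143 here. At E17.5 the first and second libraries had the same order, 3656 and 3307 counts with the label Klf5+/- and 146 and 199 with the label Klf5-/-. The third libraries had the reverse order, with 361 and 3371 counts. Whether their labels are right was not tested.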
